A study of Mus musculus with 24 samples.

Results

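RNA from the mPFC of 24 male BALB/C mice was sequenced, and the genes described here are those that write, remove and read acetyl and methyl groups on histones. They were chosen by name, as the protein-coding genes whose symbol starts with Hdac, Sirt, Kat, Kdm, Kmt, Setd or Brd followed by a digit. The rule found 68 of the 15456 genes in the table, of which 13913 are protein coding: 11 Hdac, 7 Sirt, 8 Kat, 18 Kdm, 8 Kmt, 8 Setd and 8 Brd genes. *Brd3os* matched the name only, since it is a transcript opposite *Brd3* and not a bromodomain gene. Every mouse was in postnatal week 11, and each of the 4 groups held 6 mice. Controls were labelled as untreated and received PBS according to the methods. The duloxetine group received the drug, a serotonin and noradrenaline reuptake inhibitor, by daily i.p. injection. The *R. flavefaciens* group received live bacteria of this gut species by gavage, and the remaining group received both. The tissue was a punch of a slice, so it holds every cell type of the region, and fewer cells of a type cannot be told apart from less RNA per cell.

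Histone acetyltransferases add acetyl groups to lysines of histone tails and deacetylases and sirtuins take them off, while bromodomain proteins bind the acetylated lysines. Methyltransferases with a SET domain add methyl groups to lysines and demethylases remove them, and the lysine decides the mark: methylation of histone H3 lysine 4 accompanies active promoters and enhancers, and that of lysine 9 or lysine 27 accompanies silent chromatin. In the brain these enzymes are known from work on memory, on drug responses and on intellectual disability caused by mutations in several of them.

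The 4 genes that passed the test between any groups, *Kat6b*, *Brd9*, *Kdm5d* and *Hdac11*, are shown by the promoter that RefSeq gives for them on GRCm38.p6, from 250 bases before the start of transcription to 50 bases after it. All 4 lie on the + strand, and their windows are chr14:21499520-21499819, chr13:73937561-73937860, chrY:897538-897837 and chr6:91156565-91156864, in that order. The *Kat6b* window lies inside the annotated span of the gene. Capitals mark every match, on either strand, to any of 7 motifs, none of which contains another. The letters GGGCGG are the GC box that Sp1 and its relatives bind. CCGGAAG is a core site of ETS factors such as GABPA. The CCAAT box and TATAAA, the TATA box, are classical promoter elements. TGACGTCA is the full cAMP response element bound by CREB. The remaining motifs were AAGATGGCG, a YY1 site, and GCATGCGC, an NRF1 site.
Kat6b: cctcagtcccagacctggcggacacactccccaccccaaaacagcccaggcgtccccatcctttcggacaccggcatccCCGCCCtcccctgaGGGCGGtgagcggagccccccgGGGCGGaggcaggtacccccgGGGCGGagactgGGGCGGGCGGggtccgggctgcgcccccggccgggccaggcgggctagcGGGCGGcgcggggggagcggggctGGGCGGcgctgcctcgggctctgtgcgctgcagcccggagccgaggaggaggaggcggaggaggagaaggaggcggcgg
Brd9: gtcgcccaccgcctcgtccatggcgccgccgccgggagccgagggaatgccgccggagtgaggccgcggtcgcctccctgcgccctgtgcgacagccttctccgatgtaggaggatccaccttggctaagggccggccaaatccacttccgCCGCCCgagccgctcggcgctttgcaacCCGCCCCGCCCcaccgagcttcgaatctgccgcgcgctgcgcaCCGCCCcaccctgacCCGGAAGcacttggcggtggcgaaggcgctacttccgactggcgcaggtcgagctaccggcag
Kdm5d: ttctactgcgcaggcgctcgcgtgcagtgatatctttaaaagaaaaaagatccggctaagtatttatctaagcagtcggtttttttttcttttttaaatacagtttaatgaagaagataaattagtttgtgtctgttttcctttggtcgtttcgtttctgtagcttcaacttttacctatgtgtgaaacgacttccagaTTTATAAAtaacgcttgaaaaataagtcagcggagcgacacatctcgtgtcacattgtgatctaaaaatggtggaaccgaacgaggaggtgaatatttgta
Hdac11: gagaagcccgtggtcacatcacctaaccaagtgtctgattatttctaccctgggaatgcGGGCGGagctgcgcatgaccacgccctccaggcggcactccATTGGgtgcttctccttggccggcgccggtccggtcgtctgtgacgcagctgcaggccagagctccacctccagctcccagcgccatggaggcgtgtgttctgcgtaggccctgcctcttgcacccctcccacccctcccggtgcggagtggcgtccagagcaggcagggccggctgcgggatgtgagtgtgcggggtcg
The promoters of the 3 autosomal genes hold GC boxes and 22 to 40 CpG sites, and that of *Kdm5d* on the Y chromosome holds a TATAAA match and 15 CpG sites. Of the 68 genes, 54 matched a promoter of the table, and their median was 21 CpG sites per 300 bases, against 7 over all 32851 promoters. GGGCGG was found in 61.1% of the 54 promoters and in 35.7% of all promoters. The share with CCGGAAG was 22.2% against 8.86%, that with CCAAT 38.9% against 37.4%, and that with TATAAA 5.56% against 13.6%. GCATGCGC was in 5.56% against 2.71%, AAGATGGCG in 1.85% against 1.40%, and TGACGTCA in 0% against 1.79%. The 32851 promoters were not limited to genes detected in this tissue, as the 54 are. Whether the 54 differ from promoters of other detected genes was not tested. These matches are descriptions of letters and not of bound sites.

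All 68 genes were detected in every mouse, and all 68 passed the filter of a mean of at least 10 normalised counts. Levels were compared between genes as normalised counts per kilobase of transcript. The median level of the 68 genes was 154 per kilobase, above that of 59.0% of the 14958 tested genes with a known length, and 44 of the 68 lay above the median of these genes, 107 per kilobase. *Setd3*, an actin histidine methyltransferase despite its SET domain, had the highest level, 798 ± 20.6 per kilobase in controls (SD, n = 6). It was followed by *Brd2*, a reader of acetylated histones, at 761 ± 39.9 and by *Hdac5*, a class IIa deacetylase that shuttles out of the nucleus, at 689 ± 31.2 per kilobase. The next were *Hdac11*, the only class IV deacetylase, at 624 ± 44.0 per kilobase in controls and *Sirt2*, a cytosolic sirtuin abundant in myelinating cells, at 615 ± 41.7 per kilobase. *Setd3* and *Brd2* differed by less than the sum of their SDs, as did *Hdac11* and *Sirt2*, and *Brd2* and *Hdac5* differed by slightly more.

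In the other families the highest levels per kilobase in controls belonged to *Kmt5a*, which monomethylates histone H4 lysine 20, at 469 ± 26.1, to *Kat7*, an acetyltransferase of the MYST group, at 358 ± 14.4, and to *Kdm1a*, the flavin-dependent demethylase of H3 lysine 4, at 348 ± 11.4. The genes with the lowest mean of each family over all 24 mice stood in controls as follows, *Brd7* at 153 ± 8.30, *Hdac8* at 64.3 ± 8.26, *Sirt1* at 60.6 ± 4.95, *Kat2b* at 51.9 ± 7.10, *Kmt5c* at 42.4 ± 5.60, *Setd4* at 30.4 ± 3.30 and *Kdm4d* at 6.89 ± 2.43 per kilobase. In controls alone *Hdac10*, at 56.4 ± 3.28, and *Hdac7*, at 61.2 ± 3.10 per kilobase, lay below *Hdac8*, by less than its SD. *Kdm4d* had the lowest mean of all, 16.6 normalised counts. *Kdm5c*, the X-linked H3 lysine 4 demethylase, stood at 180 ± 5.75 per kilobase, and its Y-linked partner *Kdm5d* at 54.3 ± 4.06. The coefficient of variation between mice of a group had a median of 8.14% over the 68 genes and was highest for *Kdm4d*, at 29.5%. The order of the genes within each family is shown in the plot of levels by family.

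**Figure D1:**
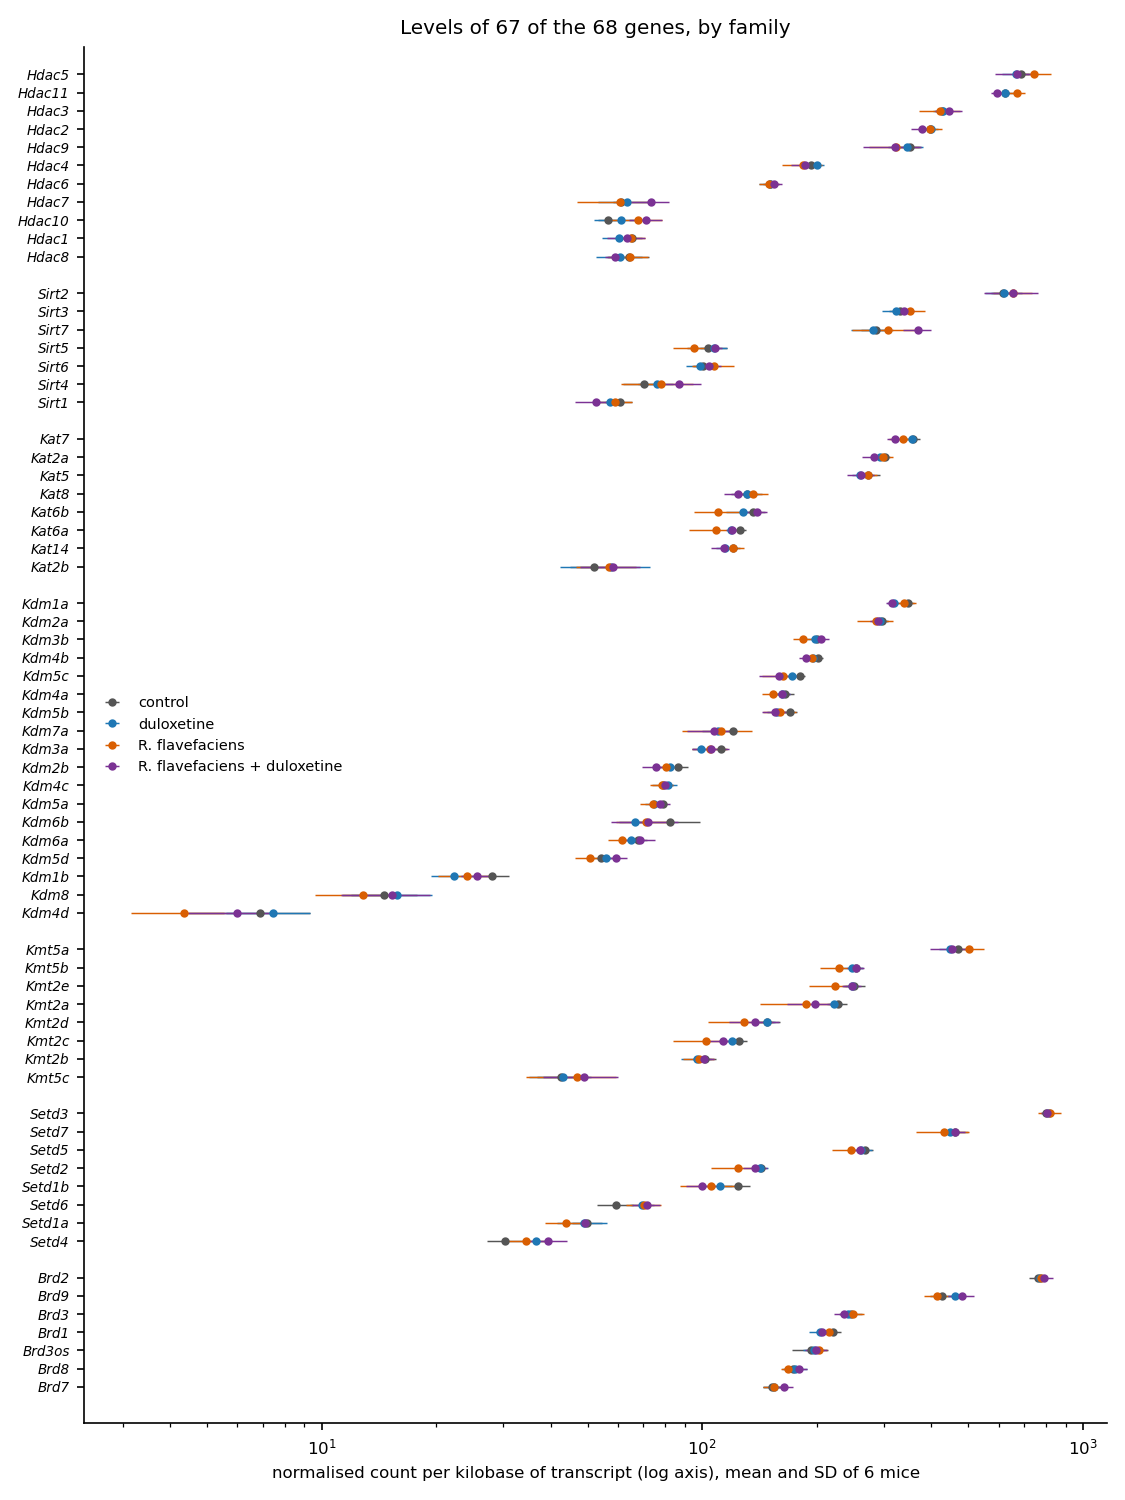
Levels of 67 of the 68 genes by family, as normalised counts per kilobase of transcript on a log axis, with points for the mean of each group of 6 mice and bars for the SD. The levels run from 6.89 per kilobase in controls for *Kdm4d* to 798 for *Setd3*, and the 4 groups lie close together for most genes.

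Between 12811413 and 15607343 reads per mouse were recovered from the normalised counts. The group medians were 13591497 reads in controls, 14536037 with duloxetine, 13943370 with *R. flavefaciens* and 14621656 with both. Depth was higher than in controls with duloxetine and with both treatments (p = 0.00433 each, exact permutation test, two-sided, n = 6 and 6), and with *R. flavefaciens* the same test gave p = 0.738. At this depth *Kat6b* had at least 566 normalised counts in each mouse and the rarest gene, *Kdm4d*, between 6.83 and 29.5, so counting error weighs most on *Kdm4d*.

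Several libraries stood apart by a trend of expression on transcript length. Each mouse was given the slope of its log2 values, relative to the mean of all 24 mice, on log2 transcript length over all genes. The 6 controls lay between 0.0195 and 0.0426. In the *R. flavefaciens* group mouse 9_3 had a slope of -0.166, mouse 7_2 of -0.0586 and mouse 8_4 of -0.0448, and its other 3 mice lay between 0.0111 and 0.0191. The duloxetine group ran from -0.0154 to 0.0387 and the group with both treatments from -0.0345 to 0.0180. Mouse 9_3 also had the lowest limma array weight, 0.247, which means that it deviated most from its group. The 68 genes are long, with a median transcript of 4084 bases against 2746 bases over the genes tested. Their median difference from the mean of 24 mice was -0.104 in mouse 9_3 and -0.0994 in mouse 7_2 on the log2 scale, and every control lay between -0.00508 and 0.0494.

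**Figure D2:**
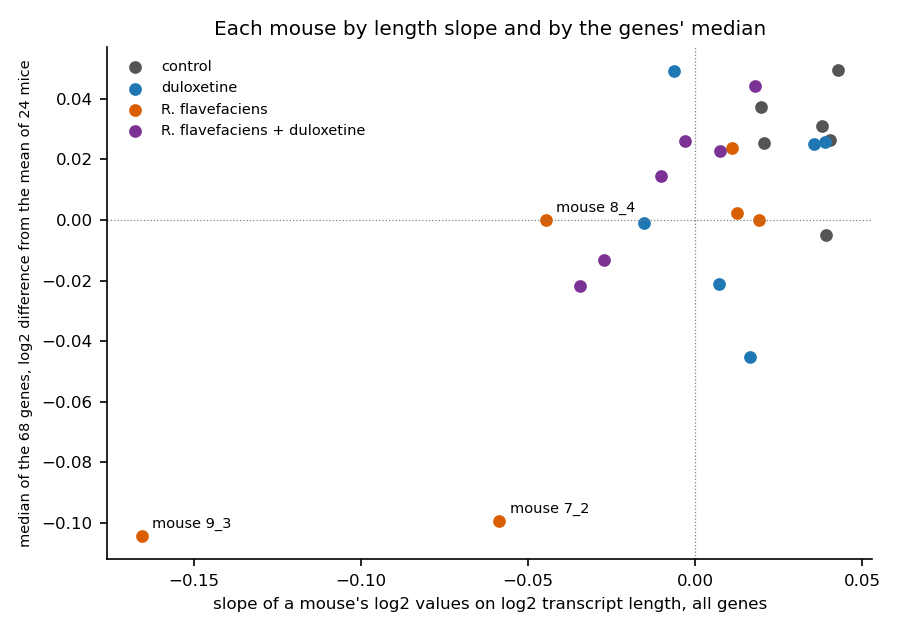
Each point is 1 mouse, with the slope of its log2 values on log2 transcript length over all genes on the x axis and the median log2 difference of the 68 genes from the mean of 24 mice on the y axis, coloured by group. Mice 9_3 and 7_2 of the *R. flavefaciens* group lie lowest on the y axis at -0.104 and -0.0994, and mouse 9_3 lies farthest to the left at -0.166.

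Duloxetine alone was compared with control to ask what the drug does to these genes. No gene of the 68 passed the test (limma, adjusted p under 0.05), and neither did any other gene, so the background was 0% of 14974 genes tested. There were 2 genes higher and 5 lower at an unadjusted p under 0.05, against 2.2% higher and 1.63% lower among all genes tested. DESeq2 and edgeR called 0 of the 68, and 0.00668% and 0% of all genes tested, in that order. The median log2 fold change of the 68 genes was -0.0279 and that of all genes -0.00184. It ran from -0.0309 to -0.0177 over the 68 when 1 mouse was left out. Of the 68 genes 44 were lower, where 51.0% of all genes were. After quantile normalisation 39 were lower, and after rescaling to the 75th percentile 38.
The smallest p belonged to *Kdm1b*, the relative of *Kdm1a* that also demethylates H3 lysine 4, which ran from 92.5 to 135 normalised counts with a median of 112 under duloxetine and from 125 to 163 with a median of 135 in controls. The groups overlapped, and the log2 fold change was -0.33 with an adjusted limma p of 1.00. Of the other genes lower at an unadjusted p under 0.05, *Kdm1a* had a log2 fold change of -0.12 and *Brd1*, a scaffold of acetyltransferase complexes, of -0.12. Higher values were found for *Setd4*, 66.7 ± 5.06 against 55.4 ± 6.01 normalised counts in controls (SD, n = 6), and for *Setd6*, a methyltransferase of non-histone proteins, 119 ± 8.48 against 101 ± 11.1. *Brd9*, a subunit of a SWI/SNF remodelling complex, had a log2 fold change of 0.11, which did not reach an unadjusted p under 0.05.

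In *R. flavefaciens* alone against control most of the 68 genes were lower. Again no gene of the 68 passed the limma test, with a smallest adjusted p of 0.0727, while 0.0267% of all genes tested did. At an unadjusted p under 0.05, 15 genes were lower and 3 higher, and among all genes tested 10.8% were lower and 8.86% higher. The 15 are 22.1% of the 68, and 48 of the 68 had a negative fold change, or 70.6%, against 49.2% of all genes. The count of 48 was 47 after quantile normalisation and 41 after rescaling to the 75th percentile. DESeq2 on the recovered reads called 3 genes, *Kat6b*, *Kmt2c* and *Kat6a*, all lower. It called 5.6% of the 8877 genes for which it gave an adjusted p. With edgeR 0 of the 68 and 0.0267% of all genes tested were called. Only *Kat6b* separated the groups completely, as 1.62% of all genes tested did.

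**Figure D3:**
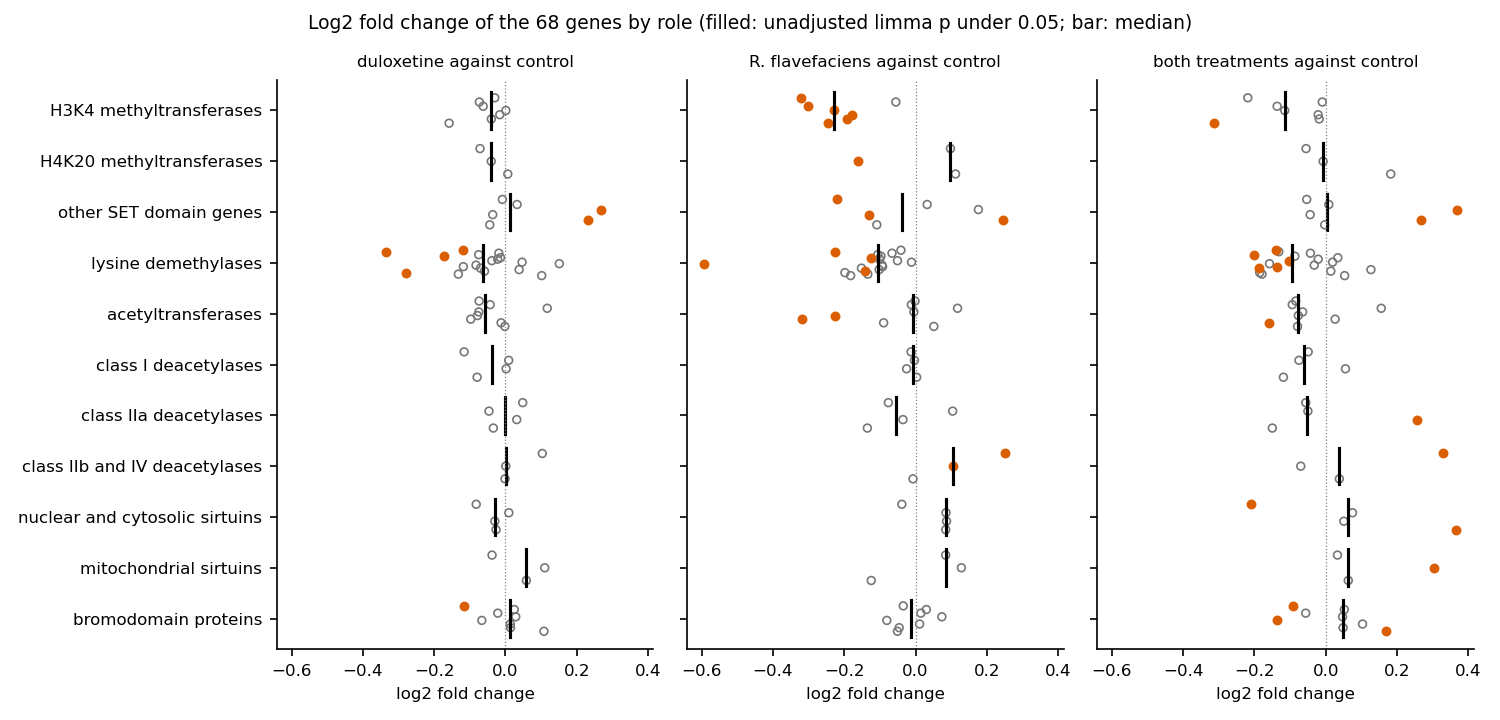
Log2 fold change of the 68 genes in the 3 comparisons with the same controls, by role, with filled points for an unadjusted limma p under 0.05 and bars for the median of each role. In the *R. flavefaciens* panel the 7 KMT2 and SETD1 genes, drawn as H3K4 methyltransferases by family name, lie below 0. So do all 18 demethylases (17 of 18 after rescaling to the 75th percentile). *Brd3os* is drawn with the bromodomain genes, and no point in any panel passed the limma test after adjustment.

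The H3 lysine 4 group is counted here as the 7 genes of the KMT2 and SETD1 families, *Kmt2a* to *Kmt2e*, *Setd1a* and *Setd1b*. They were grouped by family name, and whether each product, that of *Kmt2e* included, methylates this lysine was not examined. *Setd7*, which monomethylates this lysine, is kept with the other SET domain genes. It had a log2 fold change of -0.11 at an unadjusted p of 0.155 by limma. All 7 KMT2 and SETD1 genes were lower with *R. flavefaciens* than in controls, 6 of them at an unadjusted p under 0.05. Their median log2 fold change was -0.23, where the median of all genes was 0.00313. *Kmt2c* ran from 1106 to 1750 normalised counts with a median of 1690 in the *R. flavefaciens* group and from 1744 to 1980 with a median of 1868 in controls. Its groups overlapped by a narrow margin, and its log2 fold change was -0.30 ± 0.089 (SE) with an adjusted limma p of 0.0859 and an adjusted DESeq2 p of 0.0423. *Kmt2a* had a log2 fold change of -0.32 with an adjusted limma p of 0.148, or -0.19 without mouse 9_3, and *Kmt2b* was nearest to 0 at -0.06.
These genes have very long transcripts, with a median of 8462 bases, and their fold changes moved with mouse 9_3. That mouse had the lowest value of *Kmt2c*, 1106 normalised counts, and of *Kmt2a*, 1897. Without mouse 9_3 the 7 genes were still all lower, but 2 had an unadjusted p under 0.05 and the median was -0.13. Without mice 9_3, 7_2 and 8_4 all 7 were lower, 0 had such a p, and the median was -0.05. Among all genes tested 6.13% were lower and 5.38% higher at an unadjusted p under 0.05 without mouse 9_3, and 3.49% and 3.05% without the 3 mice. All 7 were also lower after quantile normalisation and after rescaling to the 75th percentile.

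The demethylases followed the same direction. All 18 had a negative log2 fold change with *R. flavefaciens*, or 17 of 18 after rescaling to the 75th percentile, 4 of them at an unadjusted p under 0.05, with a median of -0.10. The 4 were *Kdm3b*, a demethylase of H3 lysine 9, at -0.12, *Kdm6a*, a demethylase of H3 lysine 27, at -0.14, *Kdm1b* at -0.23 and the rare *Kdm4d* at -0.59. The lowest *Kdm1b* of the *R. flavefaciens* group, 90.6 normalised counts, was that of mouse 9_3. *Kdm4d* had a median of 11.5 normalised counts against 19.0 in controls, and its groups overlapped. Without mouse 9_3, 17 of the 18 were lower and 2 had an unadjusted p under 0.05, and without mice 9_3, 7_2 and 8_4 the counts were 14 and 2, beside the shares of all genes given above for these fits.

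Among the acetyltransferases, *Kat6b* and *Kat6a*, paralogues of the MYST group that acetylate histone H3, were lower, and the other 6 genes were not at an unadjusted p under 0.05. *Kat6b* ran from 566 to 850 normalised counts with a median of 803 in the *R. flavefaciens* group and from 881 to 1034 with a median of 929 in controls. Every mouse of the first group lay below every control. The log2 fold change was -0.32 ± 0.079 (SE), with p = 0.00216 in the exact permutation test, two-sided, which is the smallest p that 6 against 6 mice can give. Any complete separation of 6 from 6 mice gives this p, so here and below it only restates the separation. The permutation p-values are not adjusted. After adjustment over all genes limma gave 0.0727, and DESeq2 gave 0.0185. Without mouse 9_3, which had the lowest value, the log2 fold change was -0.23, and without mice 9_3, 7_2 and 8_4 it was -0.19. *Kat6a* ran from 713 to 1117 with a median of 1055, against 1097 to 1198 with a median of 1144 in controls, and its log2 fold change was -0.23 ± 0.069 with an adjusted p of 0.0930 by limma and 0.0473 by DESeq2. Without mouse 9_3 it was -0.14.

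Other SET domain genes were mixed. *Setd2*, which trimethylates H3 lysine 36, had 1034 ± 155 normalised counts against 1191 ± 22.2 in controls (SD, n = 6), a log2 fold change of -0.22. *Kmt5b*, which methylates H4 lysine 20, had a log2 fold change of -0.16, and *Setd5* of -0.13. *Setd6* had one of 0.24 and *Setd4* one of 0.18. Without mouse 9_3 *Setd2* was at -0.13 and *Kmt5b* at -0.10. This mouse also had the lowest *Setd5* of its group, 1323 normalised counts. None of these 5 passed the limma test, where the smallest adjusted p among them was 0.107.

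The Hdac and Sirt families had medians near or above 0, and no difference between families was tested. Of the 11 Hdac genes 4 were higher and 7 lower, or 7 higher and 4 lower after rescaling to the 75th percentile, with a median log2 fold change of -0.00701, and of the 7 Sirt genes 5 were higher and 2 lower, with a median of 0.08. The class I deacetylases, *Hdac1*, *Hdac2* and *Hdac3*, which are catalytic subunits of nuclear corepressor complexes, and *Hdac8*, which acts outside them, lay between -0.02 and 0.00. Of the 4 class IIa deacetylases 3 were lower and 1 higher, with a median of -0.06. *Hdac10*, a polyamine deacetylase, at 0.25 and *Hdac11* at 0.10 were higher at an unadjusted p under 0.05. *Hdac5* had 2996 ± 320 normalised counts against 2776 ± 126 in controls (SD, n = 6), and *Kmt5a* had 716 ± 66.2 against 668 ± 37.3. *Sirt3*, the main mitochondrial deacetylase, had 514 ± 47.3 against 484 ± 30.8. The differences of these 3 genes were within the spread between mice. Of the 7 bromodomain genes 3 had higher and 4 lower values, none at an unadjusted p under 0.05, and *Brd3os* was at 0.07. When 1 mouse was left out, *Brd3os* lay between 0.03 and 0.11.

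Transcript length ran with these differences. Over all 14958 genes tested with a known length, Spearman's rho between length and the log2 fold change of *R. flavefaciens* against control was -0.45, and over the 68 genes it was -0.70. These are correlations across genes, which share the 12 libraries and are not independent replicates. With a smooth trend on transcript length taken out of each mouse, the median log2 fold change of the 68 genes was -0.00494 in place of -0.0506. The number of genes at an unadjusted p under 0.05 was then 4 lower and 3 higher, where 6.2% of all genes were lower and 5.92% higher. Of the 7 KMT2 and SETD1 genes, 5 were lower after this step and 0 had an unadjusted p under 0.05, and *Kat6b* had a log2 fold change of -0.20. For duloxetine against control, rho was -0.19 over all genes and -0.41 over the 68, and for both treatments against control it was -0.25 and -0.44.

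**Figure D4:**
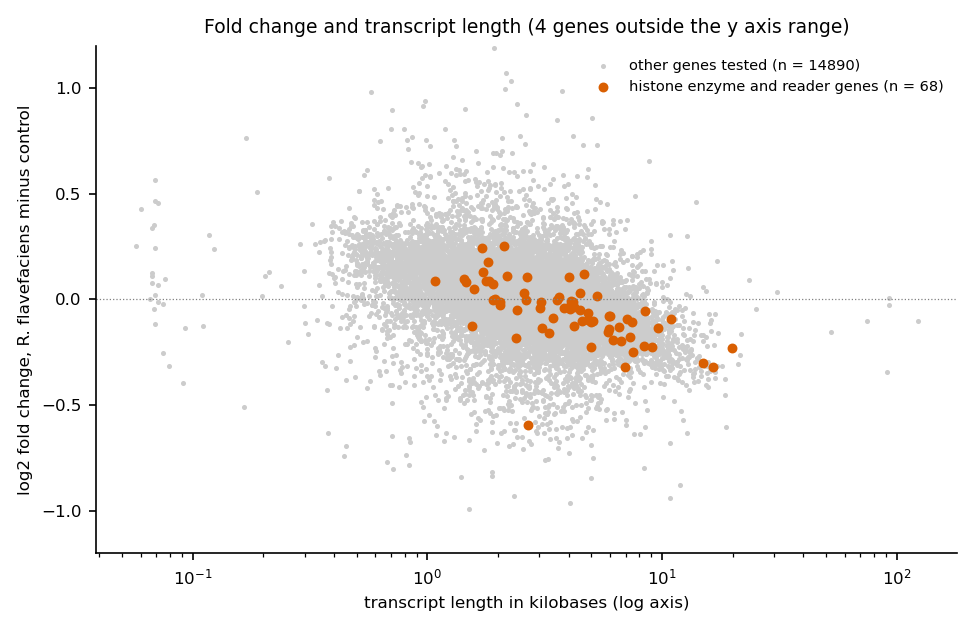
Log2 fold change of *R. flavefaciens* minus control against transcript length in kilobases on a log axis, with grey points for 14890 other genes tested and orange points for the 68 genes, and 4 genes outside the range of the y axis. Longer transcripts lie lower in both sets of points, with a rho of -0.45 over all genes and -0.70 over the 68.

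Both treatments against control used the same 6 controls, so the values below are not independent of those above. No gene of the 68 passed the limma test, with a smallest adjusted p of 0.107, and 0.1% of all genes tested did. At an unadjusted p under 0.05, 7 genes were higher and 10 lower, against 8.08% and 8.73% of all genes tested. This split depended on the scaling, and was 10 higher and 6 lower after quantile normalisation and 9 higher and 7 lower after rescaling to the 75th percentile. The median log2 fold change of all genes was then -0.00605 and 0.0323, in that order, and the shares of all genes at such a p are not given. The median log2 fold change of the 68 genes was -0.0431, against 0.000724 over all genes. DESeq2 called 2 genes, *Sirt7* and *Setd1b*, where it called 1.68% of the 12941 genes for which it gave an adjusted p. With edgeR 0 of the 68 and 0.114% of all genes tested were called. In 4 genes the groups did not overlap, *Sirt7* and *Hdac10* above and *Kat7* and *Kdm1a* below the controls, as in 2.04% of all genes tested.

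*Sirt7*, a nucleolar sirtuin that deacetylates H3 lysine 18, ran from 350 to 452 normalised counts with a median of 394 with both treatments and from 273 to 349 with a median of 302 in controls. Every mouse of the first group lay above every control, by a narrow margin. The log2 fold change was 0.36 ± 0.099 (SE), with an adjusted p of 0.107 by limma and 0.0347 by DESeq2, and p = 0.00216 in the exact permutation test, two-sided. With *R. flavefaciens* alone *Sirt7* had 330 ± 64.4 and with duloxetine alone 303 ± 38.3 normalised counts (SD, n = 6). In the annotation an exon of it overlaps *Mafg* on the same strand by 124 bases, so some reads of either gene could count for the other.
*Setd1b* ran from 644 to 834 with a median of 738 against 815 to 1042 with a median of 938 in controls, and its groups overlapped at the edge. Its log2 fold change was -0.31 ± 0.089, with an adjusted p of 0.112 by limma and 0.0451 by DESeq2.

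Other members of the higher side were *Setd4* at 0.37, *Hdac10* at 0.33, *Sirt4*, a mitochondrial sirtuin, at 0.30, *Setd6* at 0.27, *Hdac7*, a class IIa deacetylase, at 0.26, *Brd9* at 0.17 and *Kdm5d* at 0.13 on the log2 scale. *Hdac10* ran from 130 to 174 normalised counts against 110 to 128 in controls. The lower side held *Sirt1*, the nuclear deacetylase of many transcription factors, at -0.21, *Kdm2b*, a Polycomb-linked demethylase of H3 lysine 36, at -0.20, *Kdm5c* at -0.19, *Kat7* at -0.16, *Kdm1a* at -0.14 and *Kdm4b*, a demethylase of H3 lysine 9, at -0.10. *Kat7* ran from 1023 to 1159 normalised counts against 1162 to 1294 in controls, and *Kdm1a* from 902 to 1000 against 1009 to 1092. The smallest adjusted limma p among these 13 genes was 0.112. By role, the 7 KMT2 and SETD1 genes were again lower, or 5 after quantile normalisation and 4 after rescaling to the 75th percentile, with a median of -0.11 and 1 at an unadjusted p under 0.05. In the same comparison 13 of the 18 demethylases were lower, with a median of -0.10 and 5 at such a p.
With mouse 9_3 left out of the fit, which changes only the estimate of the spread here, limma called 1 gene, and with mice 9_3, 7_2 and 8_4 left out it called 5, *Sirt7*, *Setd4*, *Setd1b*, *Kat7* and *Kdm1a*. Among all genes tested 123 and 456 genes were then called.

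Adding the bacteria to duloxetine was examined by setting both treatments against duloxetine alone. No gene passed the limma test among the 68 or among all genes tested, a background of 0%. The unadjusted p was under 0.05 for 2 higher genes and 1 lower gene, against 3.02% and 2.88% of all genes tested, and after quantile normalisation 2 were higher and 2 lower. DESeq2 and edgeR called 0 of the 68, where DESeq2 called 0.00668% of all genes tested and edgeR 0%. *Sirt7* had a log2 fold change of 0.39 and *Hdac10* of 0.23, and *Kat7* had one of -0.15. *Hdac7* at 0.23, *Kdm2b* at -0.13 and *Setd1b* at -0.16 did not reach an unadjusted p under 0.05. When 1 mouse was left out, *Hdac7* lay between 0.15 and 0.28. The median over the 68 genes was 0.007, and it ran from -0.000134 to 0.0279 when 1 mouse was left out.

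Of the 5 comparisons of single groups made, adding duloxetine to the bacteria was the only one in which genes of the 68 passed the limma test. Both treatments against *R. flavefaciens* alone gave 4 called genes, *Kat6b*, *Brd9* and *Kdm5d*, which rose, and *Hdac11*, which fell. That is 5.88% of the 68, beside 2.23% of all genes tested. At an unadjusted p under 0.05, 12 were higher and 5 lower, against 9.76% and 9.9% of all genes tested. This split was 13 and 2 after quantile normalisation and 15 and 2 after rescaling to the 75th percentile. The scaling also moved the median log2 fold change of all genes, from 0.00188 to -0.00748 and 0.0184 in that order. The shares of all genes at such a p are not given for these 2 scalings, so their splits have no background. The split turned to 8 higher and 14 lower with the length trend taken out, where the shares of all genes were 6.98% and 13.9%. DESeq2 called 5 genes, the same 4 and *Kdm3b*, where it called 4.07% of all genes tested, and edgeR called the same 4 as limma and 2.18% of all genes tested. The groups did not overlap for *Kat6b*, *Kdm3b* and *Hdac11*, as in 1.44% of all genes tested. With only these groups in the fit all 4 limma calls were lost, with adjusted p of 0.127 for *Kat6b*, 0.151 for *Hdac11*, 0.157 for *Brd9* and 0.198 for *Kdm5d*. With array weights *Brd9* was still called, and the adjusted limma p was 0.0587 for *Kat6b*, 0.0682 for *Hdac11* and 0.0926 for *Kdm5d*.

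*Kat6b* (ENSMUSG00000021767.18, chr14:21481434-21672478 on GRCm38) had 865, 909, 998, 1007, 1010 and 1023 normalised counts in the mice given both treatments. The *R. flavefaciens* mice had 566, 745, 799, 807, 844 and 850. Every mouse given both lay above every mouse given the bacteria alone, and within the range of the controls or just below it. The log2 fold change was 0.34 ± 0.079 (SE), with an adjusted p of 0.0241 by limma and p = 0.00216 in the exact permutation test, two-sided. Without mouse 9_3 it was 0.26, without mouse 11_3 of the group with both the adjusted limma p was 0.0667, and without mice 9_3, 7_2 and 8_4 it was 0.0955 at a log2 fold change of 0.22. With the length trend taken out the log2 fold change was 0.26 at an adjusted limma p of 0.0201.

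*Hdac11* (ENSMUSG00000034245.10, chr6:91156665-91174692), a defatty-acylase as well as a deacetylase, had 1499, 1558, 1560, 1583, 1589 and 1663 normalised counts with both treatments. The *R. flavefaciens* mice had 1665, 1732, 1768, 1782, 1801 and 1922. The groups touched without overlapping, and the controls, from 1551 to 1858, overlapped both. The log2 fold change was -0.17 ± 0.044 (SE), with an adjusted p of 0.0334 by limma and p = 0.00216 in the exact permutation test, two-sided. The call was kept in 19 of the 24 fits that left out 1 mouse and lost without mouse 9_2, 9_3, 11_3, 11_4 or 12_3, with an adjusted limma p of up to 0.0980. It was also lost after quantile normalisation and after rescaling to the 75th percentile. With the length trend taken out it was 0.0199, at a log2 fold change of -0.20, and without mice 9_3, 7_2 and 8_4 the call was lost, with an adjusted limma p of 0.106 at a log2 fold change of -0.15.

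*Brd9* (ENSMUSG00000057649.6, chr13:73937811-73960895) had 1075, 1105, 1123, 1132, 1223 and 1318 normalised counts with both treatments. The *R. flavefaciens* mice had 948, 950, 959, 985, 1006 and 1140. Only the mouse at 1140, which is mouse 9_3, reached into the range of the other group. The log2 fold change was 0.22 ± 0.056 (SE), with an adjusted p of 0.0356 by limma and p = 0.0108 in the exact permutation test, two-sided. The call was kept in 17 of the 24 fits that left out 1 mouse and lost without mouse 7_2, 8_3, 9_1, 9_2, 11_3, 12_2 or 12_3, with an adjusted limma p of up to 0.0824, which was the value without mouse 12_2. With the length trend taken out it was 0.0348.

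*Kdm5d* (ENSMUSG00000056673.14, chrY:897788-956786) had 271, 290, 296, 308, 309 and 333 normalised counts with both treatments and 236, 239, 247, 260, 264 and 295 with *R. flavefaciens*. The groups overlapped. The log2 fold change was 0.23 ± 0.063 (SE), with an adjusted p of 0.0497 by limma and p = 0.00649 in the exact permutation test, two-sided. This call lay at the threshold and held in only 4 of the 24 fits that left out 1 mouse, with adjusted limma p from 0.0189 to 0.118, and it was 0.0869 with the length trend taken out and 0.0764 without mice 9_3, 7_2 and 8_4. *Kdm5c*, its X-linked partner, had 939 ± 109 normalised counts with both treatments and 963 ± 118 with the bacteria alone (SD, n = 6).

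**Figure D5:**
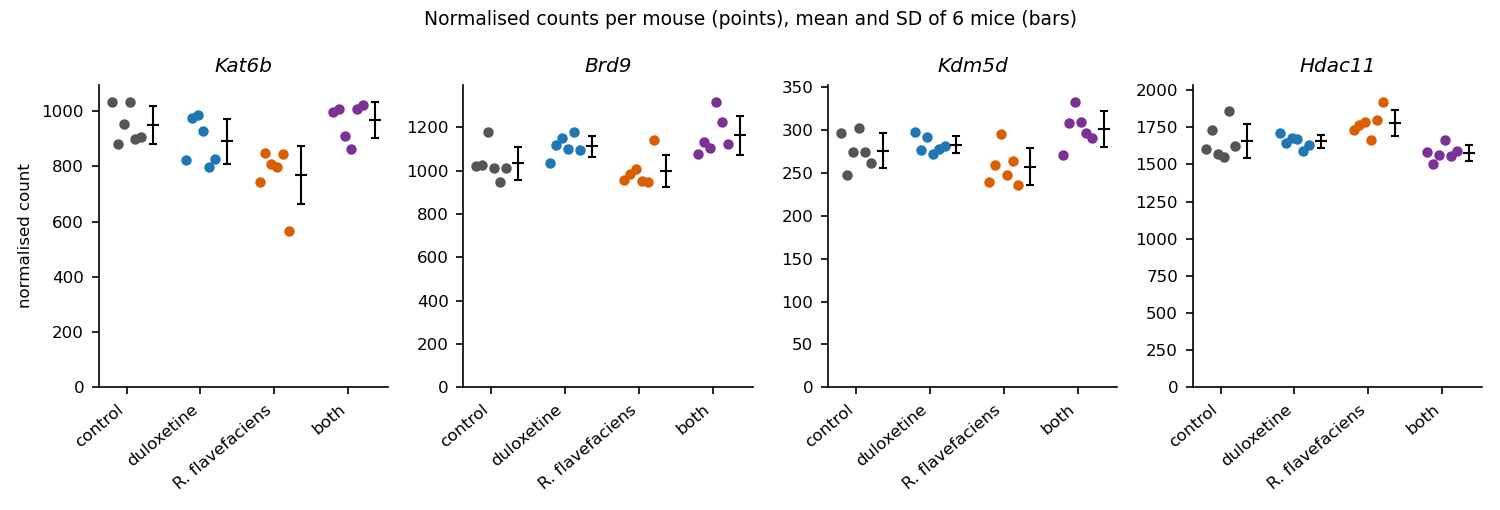
Normalised counts of *Kat6b*, *Brd9*, *Kdm5d* and *Hdac11* in each mouse, as points by group, with bars for the mean and SD of 6 mice. The groups given *R. flavefaciens* alone and both treatments separate for *Kat6b* and *Hdac11*, and mouse 9_3 is the lowest point of *Kat6b* at 566 and the highest of *Brd9* in its group at 1140.

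Below the threshold, *Kdm3b* had a median of 847 normalised counts with both treatments and of 790 with the bacteria alone, with every mouse of the first group above every mouse of the second, a log2 fold change of 0.16 with an adjusted p of 0.0648 by limma and 0.0345 by DESeq2. *Kmt5a* and *Kdm1a*, the next genes on the lower side, had -0.15 and -0.10. The KMT2 and SETD1 genes were higher in 6 of 7 cases, with a median log2 fold change of 0.12. Without mouse 9_3 it was 0.01 with 4 of 7 higher. The median over all 68 genes was 0.027 in this comparison, and -0.031 with the length trend taken out, where that of all genes was -0.028.

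Averaged over the bacteria, 12 mice with duloxetine against 12 without it, limma called *Brd9* alone, with a log2 fold change of 0.16 and an adjusted p of 0.0387, where it called 1.03% of all genes tested. Leaving out 1 mouse kept this call in 7 of 24 fits, with adjusted limma p from 0.0137 to 0.0816. DESeq2 called 2 genes, *Brd9* and *Kdm1a*, the latter at a log2 fold change of -0.11, and 2.16% of the 14683 genes for which it gave an adjusted p, and edgeR called 1 of the 68 and 0.935% of all genes tested. Averaged over duloxetine, the bacteria gave 0 calls among the 68 by limma, and 0.0267% of all genes tested passed. At an unadjusted p under 0.05, 12 were lower and 3 higher, against 10.4% and 7.68% of all genes tested. After quantile normalisation 8 were lower and 3 higher. With the length trend taken out 4 were lower and 4 higher, where the shares of all genes were 7.37% and 5.14%. DESeq2 called *Sirt7*, at 0.24, and *Kat7*, at -0.12, among the 68 and 4.51% of the 8006 genes for which it gave an adjusted p. With edgeR 0 of the 68 and 0.0267% of all genes tested were called.

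The interaction asks whether duloxetine differs in its effect with and without the bacteria. No gene of the 68 passed, and neither did any other gene tested, a background of 0%. At an unadjusted p under 0.05, 8 had a positive and 1 a negative interaction, against 3.86% and 3.67% of all genes tested. With the length trend taken out these counts were 4 and 1, against 2.98% and 3.37%. DESeq2 and edgeR called 0 of the 68, and 0% of all genes tested. *Kat6b* had the smallest p with an interaction of 0.44 on the log2 scale and an adjusted limma p of 0.639, followed by *Kdm1b* at 0.43 and *Kdm3b* at 0.17 on the positive side. *Hdac11* at -0.18, *Setd6* at -0.21 and *Kat8*, the acetyltransferase of H4 lysine 16, at -0.13 had the smallest p on the negative side. The median over the 68 genes was 0.064, and it was 0.00103 with the length trend taken out. It ran from 0.0307 to 0.0768 when 1 mouse was left out.

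Beyond the names in the rule, a list of 108 other chromatin genes, among them acetyltransferases, complex partners, methyltransferases and bromodomain genes, was measured in full. Against control, 3 of the 108 were lower and 0 higher at an unadjusted p under 0.05 with duloxetine, 22 lower and 3 higher with *R. flavefaciens*, and 19 lower and 3 higher with both. Among all genes tested the shares lower and higher were 1.63% and 2.2%, 10.8% and 8.86%, and 8.73% and 8.08% in these comparisons. With *R. flavefaciens* 14 were lower and 1 higher without mouse 9_3, where 6.13% and 5.38% of all genes were. Without mice 9_3, 7_2 and 8_4 the counts were 3 and 3, against 3.49% and 3.05% of all genes. With the length trend taken out they were 9 and 4, against 6.2% and 5.92%. For both treatments the 19 lower genes became 22 with the length trend taken out, where 11.9% of all genes were lower, 31 without the 3 mice, where 12.6% were, and 8 after quantile normalisation and 8 after rescaling to the 75th percentile. No gene of the list passed the limma test in these 3 comparisons, but without the 3 mice 6 of the 108 did with both treatments, where 3.05% of all genes tested were called. *Phf8*, a demethylase of H3 lysine 9, had 452 ± 38.0 normalised counts with duloxetine against 517 ± 26.3 in controls, and *Rcor2*, a partner of *Kdm1a*, had 146 ± 5.67 against 169 ± 21.3 (SD, n = 6). With *R. flavefaciens*, *Brpf3*, a scaffold that pairs with *Kat7*, had 533 ± 52.5 against 626 ± 28.6, and *Jmjd6*, a JmjC hydroxylase, had 337 ± 32.4 against 277 ± 19.3. With both treatments, *Smarca4*, the ATPase of SWI/SNF complexes, had 2685 ± 139 against 2928 ± 35.9, and *Sap130*, a subunit of the Sin3 complex, had 711 ± 77.9 against 827 ± 41.2.
In both treatments against *R. flavefaciens*, 4 of the 108 passed the limma test, where 2.23% of all genes tested did. They are named here after their values were seen: *Dot1l*, the H3 lysine 79 methyltransferase, rose by 0.35, and *Jmjd6*, *Prmt1*, the main arginine methyltransferase, and *Rbbp4*, a histone chaperone of deacetylase complexes, fell by 0.33, 0.20 and 0.15 on the log2 scale.

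The label of the tissue was checked against markers of its cell types. All 6 markers of excitatory neurons and all 7 of inhibitory neurons were present, led by *Camk2a* and *Gad1*. The summed level of the inhibitory markers was 11244 ± 376 normalised counts with *R. flavefaciens* against 10375 ± 478 in controls (SD, n = 6), and 3 of the 7 had an unadjusted p under 0.05. Astrocyte markers, led by *Aldoc*, summed to 21315 ± 3194 with both treatments against 18803 ± 1158 in controls, with 3 of 6 at such a p. Of the lists for other cells or regions, only *Folr1* of the 4 choroid plexus genes was not listed. Genes of blood, led by *Hbb-bs*, had their highest medians in the groups given the bacteria. Their summed level ran from 278 to 448 normalised counts with a median of 350 in controls, and from 418 to 988 with a median of 535 with *R. flavefaciens*. With both treatments it ran from 275 to 1090 with a median of 470, and with duloxetine from 289 to 984 with a median of 354. Of the 5 blood genes 4 had an unadjusted p under 0.05 with *R. flavefaciens* and 5 with both treatments, and none passed after adjustment.

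Microglial genes, led by *Csf1r*, had sums of 3072 to 3472 with a median of 3307 in controls, and medians of 3778 with duloxetine, 3652 with *R. flavefaciens* and 3789 with both. Of the 6 genes, 4, 3 and 4 had an unadjusted p under 0.05 against control in these groups. Oligodendrocyte sums, led by *Mbp*, ran from 11851 to 52878 over the 24 mice and overlapped fully between groups. Mouse 8_4 of the *R. flavefaciens* group had the highest sums of striatal genes, 4720 normalised counts against 1368 to 1937 in controls, and of choroid plexus genes, 791 against 39.2 to 64.2. Striatal sums also lay above every control in mouse 11_4 of the group with both treatments, at 2748, and in mouse 8_3 of the *R. flavefaciens* group, at 2023. The part of these cell types in the differences of the 68 genes was not tested. Exons of 26 of the 68 genes overlap an exon of another gene in the annotation, and for 12 of them, *Sirt7*, *Kdm1b*, *Sirt3*, *Kmt2a* and *Kdm2b* included, that gene is in the table, so their counts could hold reads of the neighbour.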

How the data were processed

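The authors prepared poly(A) libraries, mapped the reads with TopHat2 2.1.0 and Bowtie2 2.2.6 and normalised gene counts with DESeq2 1.18.1. The methods name GRCm38.p5 and the submitters' processing notes mm9, and the positions in the table are those of GRCm38. The counting program, its strand setting and the gene filter are not given in the sources used here. The deposited signal values are counts per gene after division by the size factor of the mouse. Whole reads were recovered from the steps between values, and 99.997% of values were whole within 0.0051.

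The 68 genes, lists and tests were chosen with earlier results of these data known. Of 15456 genes, the 14974 with a mean of at least 10 entered 1 limma 3.58.1 fit (R 4.3.3) of the 4 groups on log2(value + 1), with a trended prior. Fold changes are on that scale and understate low genes. Tests were two-sided, with Benjamini-Hochberg adjustment within a comparison and a threshold of 0.05. DESeq2 1.42.0 and edgeR 4.0.16 ran on recovered reads, and limma was tested on simulated data. Transcript lengths came from GENCODE vM21, with the ID of 15438 genes found, and the promoters from RefSeq. Python 3.11.15, numpy 2.4.6, pandas 2.3.3, scipy 1.17.1 and matplotlib 3.10.9 were used.

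Named genes were the 8 higher and 8 lower with the smallest p in each of the comparisons of a bacteria group with control, the 3 and 3 in the other single comparisons and the interaction, up to 12 called by any tool, the highest and lowest level of each family, and *Kdm5c* and *Kdm5d*. Other genes of a count are named for completeness. The values of 1 gene that the rule names are not reported here, and it stays in all counts and medians. Mice are named by the number in their label, whose first part is not explained, and which mice shared a cage is not given in the sources used here.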

Additional observations from a re-analysis of the deposited data

Results flagged for a closer look

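Among the named genes, 160 sets of 6 mice were checked for a mouse far from the other 5, and 8 had one, where chance alone gives about 1 in 20. Mouse 9_3 of the *R. flavefaciens* group was such a mouse in 3 of the 8, with the lowest *Kat6b* of its group at 566 normalised counts, the highest *Sirt3* at 606 and the highest *Brd9* at 1140. In the same group mouse 9_1 had a *Kmt5a* of 846, where the next mouse had 723. In the group given both treatments, mouse 10_2 had a *Kmt2c* of 1438, below 1676 in the next mouse, and mouse 11_4 had a *Kdm3b* of 938, above 870. In the duloxetine group mouse 5_1 had a *Setd2* of 1079, below 1188, and among the controls mouse 2_2 had a *Brd9* of 1177, above 1027. The *Kat6b* fold changes without mouse 9_3 are given with the results above, and the reason for these values was not tested.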

How the results depend on the processing

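The results were computed again with other settings. For *R. flavefaciens* against control, the number of genes called among the 68 was 0, but 3 with DESeq2, 1 with a random block for mice that share the first number of their label (whose correlation was -0.0451), 3 at an adjusted p under 0.1, and 0 to 4 when 1 mouse was left out. The median log2 fold change of -0.0506 was -0.00494 with the length trend taken out. For both treatments against control the count of 0 became 2 with DESeq2, 2 with only these groups in the fit, 3 with array weights, 5 without mice 9_3, 7_2 and 8_4, and 0 to 1 when 1 mouse was left out, and the median of -0.0431 was -0.00574 after quantile normalisation. For both treatments against *R. flavefaciens*, 4 calls became 0 with only these groups in the fit, 1 with array weights and 0 to 7 when 1 mouse was left out, and the median of 0.027 was -0.031 with the length trend taken out. Averaged over the bacteria, the 1 call for duloxetine became 2 with DESeq2, 2 at an adjusted p under 0.1, 3 without the 3 mice and 0 to 1 when 1 mouse was left out. The median of 0.013 was -0.028 without the 3 mice and ran from -0.00166 to 0.0204 when 1 mouse was left out. Averaged over duloxetine, the bacteria gave 2 calls with DESeq2 in place of 0. These counts stand beside the share of all genes called by limma in the same fits, where the shares for DESeq2 are given with the comparisons. For *R. flavefaciens* against control limma called 1.48% of all genes with the random block, 3.87% at an adjusted p under 0.1, and 0 to 616 genes when 1 mouse was left out. Without the block it called 0.0267%. Each first label number occurs in 1 group only, so the block cannot separate that number from treatment. For both treatments against control limma called 1.31% with only these groups, 1.51% with array weights, 3.05% without the 3 mice and 5 to 154 genes when 1 mouse was left out. For both treatments against *R. flavefaciens* it called 0% with only these groups, 0.882% with array weights and 47 to 577 genes when 1 mouse was left out. For duloxetine averaged over the bacteria it called 2.5% at an adjusted p under 0.1, 3.07% without the 3 mice and 46 to 260 genes when 1 mouse was left out. The interaction median of 0.064 was 0.00103 with the length trend taken out and 0.016 without the 3 mice. The 61 fold changes of genes chosen by the naming rule, each in 1 comparison, kept their sign in every setting run. That count leaves out genes named only as part of a group, and among the 7 KMT2 and SETD1 genes some changed sign with the length trend taken out or under another scaling, as given with those counts. The cause of these shifts was not tested. The settings without the 3 mice and without *Brd3os* were chosen after seeing the data. No paired analysis was possible because the groups share no label numbers.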
